A study of Rattus norvegicus with 30 samples.

Results

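The solvents of the study were compared directly, DMSO against ethanol (EtOH), in the cultures that received no drug. Members were taken by label, which gave the DMSO libraries at 4 h and 24 h and the EtOH libraries at the same times, 12 of the 30 libraries of the series. Each of the 4 groups held 3 libraries, numbered 1 to 3. All came from wild-type primary hippocampal neurons of Wistar rat embryos at embryonic day 18 that had been grown for 7 days, and both solvents were present at 0.2%. DMSO was the vehicle of dimethyl fumarate (DMF) and monomethyl fumarate (MMF), and EtOH that of cannabidiol (CBD). The comparison asked how much of the transcriptome depended on the solvent alone. No culture without solvent was compared here, so a difference between the solvents cannot be assigned to a rise with one or a fall with the other.

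Both solvents pass cell membranes freely. DMSO is reduced by methionine sulfoxide reductases, and ethanol is oxidised by alcohol dehydrogenases, catalase and aldehyde dehydrogenases and acts directly on GABA-A receptors, glutamate receptors and several potassium channels. Several of the genes described below belong to another system, the oxygen-sensing pathway, in which the hypoxia-inducible factors (HIF) are marked for degradation by prolyl hydroxylases that need oxygen, iron and 2-oxoglutarate. When the factors escape, they pair with ARNT, bind short motifs with the letters ACGTG or GCGTG, and raise genes of glucose uptake, glycolysis, blood vessel growth and collagen hydroxylation.

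Between 15108132 and 22625550 reads lay on genes in each library, with a median of 17346473.5 for DMSO and 20957205.5 for EtOH, and the part of this depth gap in the results was not tested. Values are reads divided by a size factor per library, called normalised reads. They are not divided by gene length, so they compare libraries and not genes, and the libraries of each time were scaled apart from those of the other. The labelled cell type was borne out by its markers, since the 11 neuronal markers summed to between 120878 and 144174 normalised reads in every library. Astrocyte markers were also abundant, with *Gfap*, an astrocyte filament protein, between 12403 and 32124. Microglial markers were low but present. *Cx3cr1*, a microglial chemokine receptor, had no read in 4 of the 12 libraries and at most 14.5. *C1qa* reached 63.5, the highest value among the 10 markers, and *Csf1r* lay between 6.54 and 60.8. The cultures thus held glia beside neurons, and in bulk RNA fewer cells of a type cannot be told apart from less RNA per cell. One library stood apart before any comparison of single genes, which was DMSO at 4 h, replicate 1. Its 18 immediate early genes lay 1.73 (log2, median) above their mean over the libraries of 4 h. The other 11 libraries lay between -0.47 and 0.30 from the mean of their own time. The counts of genes over both times and at each time are therefore also given without it.

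Over both times together, 73 of 14384 genes tested differed between the solvents at an adjusted p-value under 0.05 (limma with replicate number as a block), which is 0.508% of the genes. With DMSO, 58 of them were higher (0.403%) and 15 were lower (0.104%). The differences were mostly small, as 6 of the 73 exceeded a log2FC of 1 in size. At an unadjusted p under 0.05, 894 genes were higher (6.22%) and 877 lower (6.1%). In 69 of the 73 genes, the 6 pairs of a DMSO and an EtOH library with the same number and time all went one way, against 6.63% of all genes, and 55 of the 58 higher genes were higher in all 6 pairs, against 3.5%. For 22 genes, all 6 DMSO libraries lay beyond all 6 EtOH libraries, against 0.417% of all genes. Among the 73, groups were apart for 48 genes at 4 h (9.39% of all genes), for 48 at 24 h (9.88%) and for 35 at both times (1.35%). These shares describe the called genes and are no separate evidence, since the test used the same values. Leaving out the DMSO library of 4 h, replicate 1, raised the count to 139, of which 70 were among the 73. Of these 139 genes, 77 were higher and 62 lower with DMSO, so the excess of higher genes was smaller without that library. The count fell to 17, 18 and 45 without EtOH replicates 1, 2 and 3 of 4 h, to 27 and 19 without DMSO replicates 1 and 2 of 24 h, and to 45 and 44 without EtOH replicates 1 and 2 of 24 h. Without all libraries of replicate 1, 2 or 3 it was 39, 7 or 40. Without the block for replicate number, limma called 0 genes, with 894 at an unadjusted p under 0.05. DESeq2 without the block called 48, of which 43 were among the 73.

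Fewer genes passed at single times. At 4 h, 28 genes passed (0.195% of the genes), 21 higher (0.146%) and 7 lower (0.0487%) with DMSO, and 22 of them were among the 73. Without DMSO replicate 1 of 4 h the count was 26, without DMSO replicate 2 of 4 h it was 49, and it fell to 3 without EtOH replicate 1 or 2 of 4 h. At 24 h, *Psd4* alone passed (0.00695%), while 1525 genes had an unadjusted p under 0.05. The number of genes that passed at 24 h rose to 21 without DMSO replicate 1 of 4 h and to 14 without DMSO replicate 2 of 4 h. It was 5 without EtOH replicate 3 of 24 h, and 2 without DMSO replicate 3 or EtOH replicate 1 of 4 h. It was 0 without EtOH replicate 2 of 4 h or without any single library of 24 h other than EtOH replicate 3. The 6 libraries of 24 h fitted alone with the block gave 68. All 73 genes kept their sign at both times, which the call over both times favours by construction. The log2FC was larger in size at 4 h for 45 of them.

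**Figure D1:**
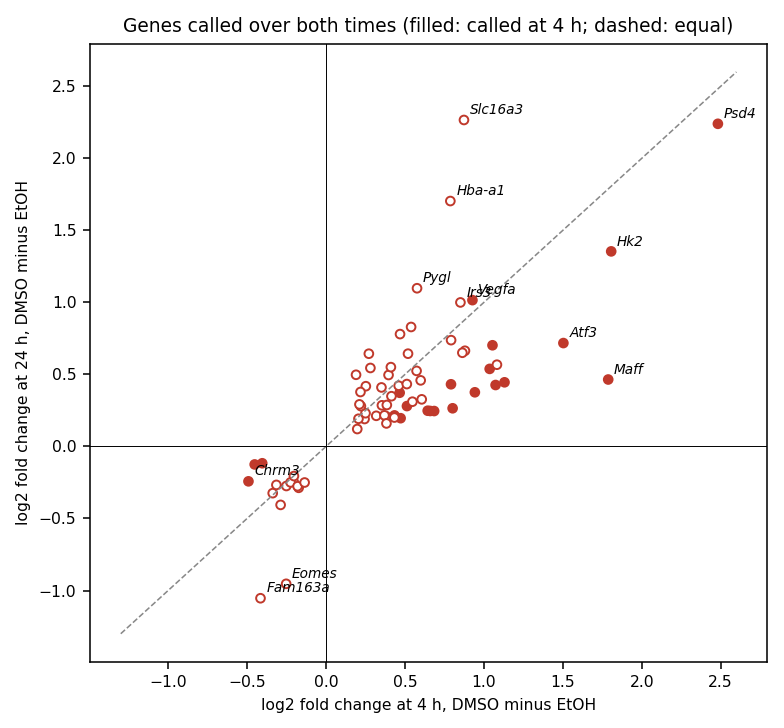
Log2 fold change (DMSO minus EtOH) at 4 h on the x axis and at 24 h on the y axis for the 73 genes called over both times, with genes called at 4 h filled and the dashed line marking equal values. All points lie on the same side of 0 on both axes, and *Slc16a3* and *Hba-a1* lie far above the line while *Maff* and *Atf3* lie below it.

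The largest difference, and with *Kdm3a* the smallest adjusted p, was that of *Psd4* (chr3:7137155-7173571 of mRatBN7.2), which encodes an exchange factor for the small GTPase ARF6. At 4 h it was at 109, 85.5 and 23.7 normalised reads in DMSO replicates 1, 2 and 3, and at 15.8, 15.8 and 3.76 in the EtOH replicates. At 24 h the values were 38.1, 40.2 and 13.7 with DMSO and 5.36, 8.71 and 2.63 with EtOH. The solvents did not overlap at either time, and replicate 3 was the lowest in all 4 groups. The log2FC was 2.36 ± 0.21 (SE) over both times, a 5.14-fold difference (adjusted p = 8.68e-05), and it was also called at 4 h (log2FC = 2.48, adjusted p = 0.00211) and at 24 h (log2FC = 2.24, adjusted p = 0.0225). Its 3 relatives did not pass the test (families of genes, here and below, were put together after the values had been seen). The log2FC was 0.05 for *Psd*, -0.03 for *Psd2* and -0.02 for *Psd3*, each with a 95% interval inside -0.11 to 0.14.

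**Figure D2:**
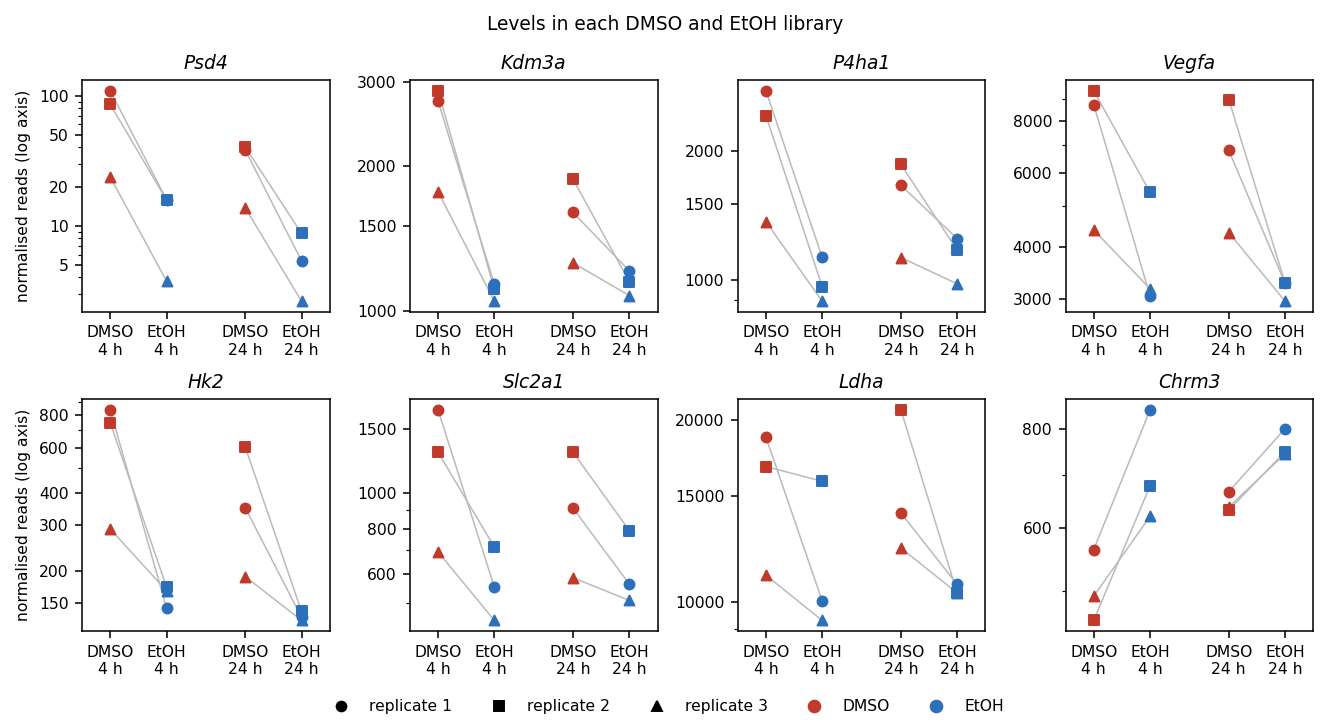
Normalised reads (log axis) of 8 called genes in each of the 12 libraries, DMSO in red and EtOH in blue, with the marker shape giving the replicate and grey lines joining libraries of one number and time. All lines fall from DMSO to EtOH except those of *Chrm3*, which rise, and replicate 3 has the smallest difference for most of the higher genes.

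Genes of the hypoxia response were a first group. Of the 11 genes on the hypoxia list, 10 were tested and 3 were higher with DMSO (*Vegfa*, *P4ha1* and *Ero1a*), against 0.403% of all genes, with none called lower. *Vegfa* and *P4ha1* also passed in all 12 fits that left out 1 library, and *Ero1a* in 8. The median log2FC of the 10 was 0.42, against -0.005 over all genes tested, and 8 of them had an unadjusted p under 0.05 and were higher, against 6.22% of all genes. *Vegfa* (chr9:14955300-14970641), the main growth factor of blood vessels, was at 8732, 9420 and 4387 normalised reads with DMSO at 4 h and at 3058, 5394 and 3177 with EtOH. At 24 h it was at 6790, 8972 and 4324 with DMSO and at 3275, 3278 and 2966 with EtOH. At 24 h the groups were apart, while at 4 h DMSO replicate 3 lay below EtOH replicate 2. Its log2FC was 0.97 ± 0.12 (SE, adjusted p = 0.00154), close to a doubling at both times (1.9-fold at 4 h and 2.02-fold at 24 h). Of 7 members of the vascular growth factor family tested no other passed, with log2FCs of -0.11 for *Vegfb* and 0.10 for the receptor *Kdr*.

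*P4ha1* (chr20:27302141-27352786), the catalytic subunit of the enzyme that hydroxylates collagen prolines, was at 2756, 2414 and 1367 with DMSO at 4 h and at 1129, 965 and 892 with EtOH. At 24 h the difference was smaller, with 1661, 1858 and 1128 for DMSO and 1248, 1172 and 979 for EtOH. The groups were apart at 4 h and overlapped at 24 h through DMSO replicate 3. Over both times its log2FC was 0.75 ± 0.08 (SE, adjusted p = 0.000742), and *P4ha2*, the catalytic subunit of another form of the enzyme, was 0.77 higher (adjusted p = 0.0131). *P4hb*, the subunit that both forms share, had 0.07 and did not pass (adjusted p = 0.496). *Ero1a*, an oxidase that forms disulfide bonds in the endoplasmic reticulum, had a log2FC of 0.45 (adjusted p = 0.018).

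The hypoxia genes that did not pass mostly pointed the same way. *Adm*, a vasodilator peptide, had a log2FC of 0.97 (95% interval 0.49 to 1.46, adjusted p = 0.076). *Bnip3*, which takes part in mitophagy, had 0.38 (adjusted p = 0.076), and *Ankrd37* had 0.89 (adjusted p = 0.159). The oxygen sensors of the pathway, *Egln1* and *Egln3*, which are themselves HIF targets, had 0.20 and 0.28 (adjusted p = 0.245 and 0.34). *Ndrg1* was the exception among the abundant members, with 0.04 over both times, -0.18 at 4 h and 0.27 at 24 h.

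Transcripts of the factors themselves did not pass the test in either direction. The log2FC was -0.05 for *Hif1a*, 0.05 for its partner *Arnt* and 0.10 for *Vhl*, which targets the factors for degradation. *Epas1*, encoding HIF-2α, had -0.25 and was lower with DMSO in 6 of 6 pairs, but missed the threshold (adjusted p = 0.0751). These are transcript levels, while the pathway is known to be regulated mainly through the stability of the proteins.

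Promoters of the called genes were searched for the HIF core letters, ACGTG and GCGTG, on both strands. The window was the 250 bases before the start site (RefSeq, build GRCr8), and 65 of the 73 genes had one. Of the 51 promoters of genes that were higher with DMSO, 34 (66.7%) held at least 1 match, as did 9 of the 14 of genes that were lower (64.3%). Over the 10938 promoters of genes tested, the share was 54.9%, and over all 27457 promoters of that length it was 37.9%. ACGTG also lies within the E-box CACGTG, which other factors bind. An E-box reads the same on both strands and counts here as 2 overlapping matches. It was present in 10 of the 51 promoters, in 2 of the 14 and in 890 of the 10938. At least 2 matches were found in 24 of the 51 promoters (47.1%), in 3 of the 14 (21.4%) and in 27.1% of the promoters of genes tested. Promoters with a single E-box are among those with at least 2 matches. No test was made of these shares, and a match is a description of letters and not a binding site.

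The promoters of *P4ha1*, *Slc2a1*, *Ldha*, *Kdm3a* and *Vegfa* are shown as examples of called genes with several matches and with none, picked with the results known, with matches on either strand in capitals and the bases written 5′ to 3′ along the gene. *P4ha1*, *Slc2a1* and *Ldha* held 2, 4 and 4 matches, and of those in *Ldha* 2 overlap in an E-box. *Kdm3a* and *Vegfa* held none in this window, as did *Hk2*, which is not printed.
P4ha1 promoter, chr20:27844796-27845045, plus strand: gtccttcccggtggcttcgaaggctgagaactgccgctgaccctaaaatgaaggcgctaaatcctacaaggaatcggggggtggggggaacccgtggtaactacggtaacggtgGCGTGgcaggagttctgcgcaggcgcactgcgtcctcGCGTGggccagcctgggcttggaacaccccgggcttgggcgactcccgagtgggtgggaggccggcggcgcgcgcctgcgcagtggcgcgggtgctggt
Slc2a1 promoter, chr5:138002272-138002521, plus strand: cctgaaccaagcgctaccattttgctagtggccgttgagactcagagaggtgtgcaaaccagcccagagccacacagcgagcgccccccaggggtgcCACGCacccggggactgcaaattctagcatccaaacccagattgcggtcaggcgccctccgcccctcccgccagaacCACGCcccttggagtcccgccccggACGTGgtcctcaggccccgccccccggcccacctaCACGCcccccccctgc
Ldha promoter, chr1:106507842-106508091, plus strand: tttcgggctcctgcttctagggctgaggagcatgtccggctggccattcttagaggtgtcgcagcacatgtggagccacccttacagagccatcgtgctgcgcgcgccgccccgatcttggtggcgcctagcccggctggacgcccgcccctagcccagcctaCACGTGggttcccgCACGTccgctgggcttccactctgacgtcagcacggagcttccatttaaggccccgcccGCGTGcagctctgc
Kdm3a promoter, chr4:105233371-105233620, minus strand: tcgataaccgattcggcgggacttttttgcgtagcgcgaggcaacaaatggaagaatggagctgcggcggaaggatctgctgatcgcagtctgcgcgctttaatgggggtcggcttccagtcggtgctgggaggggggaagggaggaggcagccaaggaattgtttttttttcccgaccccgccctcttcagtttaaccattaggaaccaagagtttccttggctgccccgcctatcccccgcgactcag
Vegfa promoter, chr9:22452604-22452853, plus strand: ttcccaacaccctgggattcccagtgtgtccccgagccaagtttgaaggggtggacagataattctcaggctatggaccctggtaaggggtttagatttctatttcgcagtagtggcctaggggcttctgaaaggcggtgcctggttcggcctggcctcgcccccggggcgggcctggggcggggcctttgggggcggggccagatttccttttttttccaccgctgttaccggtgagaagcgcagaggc

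Glucose uptake and glycolysis formed another group. Of the 20 genes listed, 19 were tested, and 6 were higher with DMSO (*Hk2*, *Slc2a1*, *Pgam1*, *Gpi*, *Pfkl* and *Ldha*), against 0.403% of all genes, while none was lower. With 1 library left out, between 2 and 10 of the 19 were called. The count was 2 without EtOH replicate 1 or 2 of 4 h, DMSO replicate 1 or 2 of 24 h or EtOH replicate 2 of 24 h, 3 without EtOH replicate 3 of 4 h or EtOH replicate 1 of 24 h, and 9 and 10 without DMSO replicate 3 of 4 h and EtOH replicate 3 of 24 h. *Hk2* and *Slc2a1* passed in all 12 of these fits, and *Pfkl* and *Ldha* in 4. The median log2FC was 0.32, and 14 of the 19 were higher at an unadjusted p under 0.05, against 6.22% of all genes. *Hk2* (chr4:115234509-115283530), the inducible hexokinase that traps glucose in the cell, was at 838, 747 and 291 with DMSO at 4 h and at 144, 173 and 168 with EtOH. At 24 h it was at 351, 602 and 190 with DMSO and at 132, 139 and 129 with EtOH. Every DMSO library exceeded every EtOH library, and the log2FC of 1.58 ± 0.19 (SE) is a 2.99-fold difference (adjusted p = 0.00162). *Hk1*, the constitutive hexokinase of neurons, had a log2FC of 0.06 with a 95% interval of -0.04 to 0.16.

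*Slc2a1* (chr5:132717196-132745416) encodes GLUT1, the glucose transporter of glia and of the blood-brain barrier. It was at 1697, 1298 and 690 with DMSO at 4 h and at 552, 711 and 447 with EtOH. At 24 h the values were 910, 1297 and 586 with DMSO and 562, 790 and 507 with EtOH. The groups overlapped through replicate 3, but DMSO was higher in 6 of 6 pairs, with a log2FC of 0.79 ± 0.11 (SE, adjusted p = 0.00496). The neuronal transporter *Slc2a3* had 0.25 and missed the threshold (adjusted p = 0.063).

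Further down the pathway the differences were smaller. *Gpi*, *Pfkl* and *Pgam1*, which act between glucose 6-phosphate and phosphoenolpyruvate, had log2FCs of 0.34, 0.41 and 0.32 (adjusted p = 0.0405, 0.0499 and 0.0281). *Ldha*, the lactate dehydrogenase subunit that favours lactate formation, was at 18752, 16762 and 11066 with DMSO at 4 h and at 10030, 15844 and 9309 with EtOH. At 24 h it was at 14033, 20805 and 12275 with DMSO and at 10680, 10325 and 10339 with EtOH, without overlap. Its log2FC of 0.48 ± 0.10 (SE) passed narrowly (adjusted p = 0.0499), and that of *Ldhb*, the subunit that favours lactate use, was -0.01. Isoforms thus differed in size within 3 steps, with *Hk2* above *Hk1*, *Pfkl* above *Pfkm* (-0.03) and *Ldha* above *Ldhb*, although these contrasts between genes were not tested. *Tpi1*, *Pgk1*, *Pkm* and *Pdk1* had 0.36, 0.34, 0.31 and 0.40 and did not pass (adjusted p = 0.076, 0.093, 0.071 and 0.15).

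**Figure D3:**
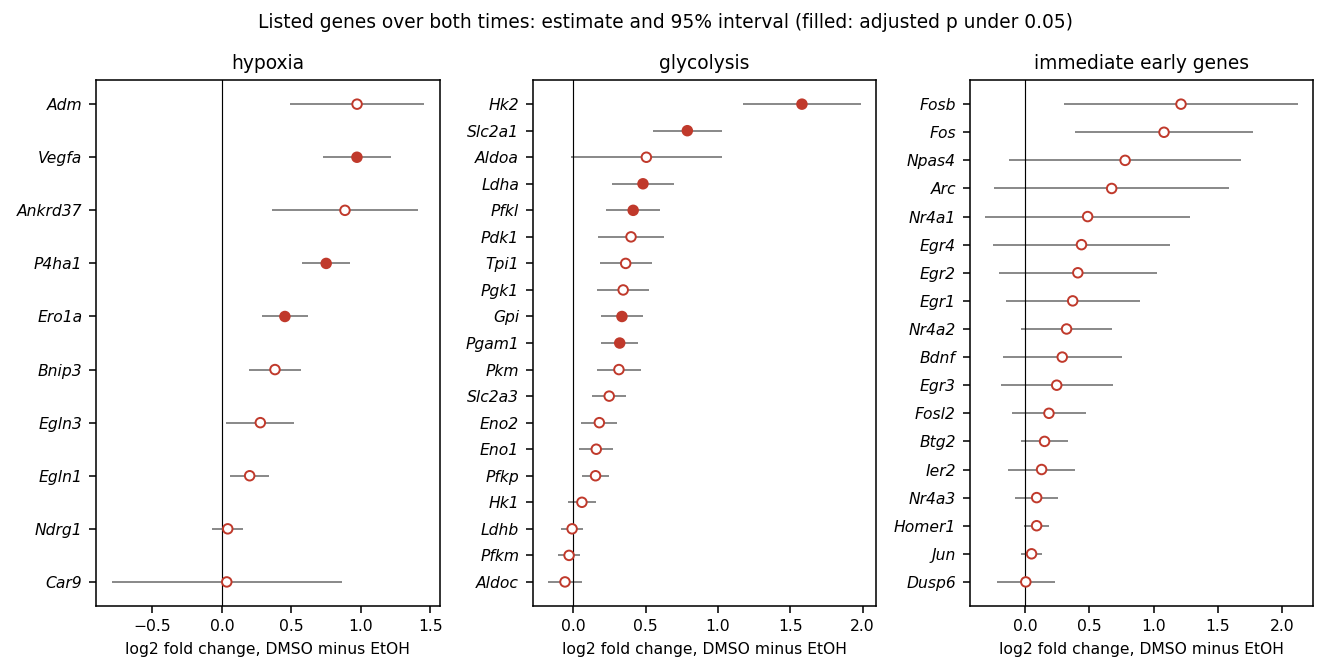
Log2 fold change over both times (DMSO minus EtOH, x axis) with its 95% interval for each tested gene of the hypoxia, glycolysis and immediate early gene lists, with genes at an adjusted p under 0.05 filled. The hypoxia and glycolysis genes lie mostly to the right of 0, with 3 and 6 filled, and the immediate early genes have wide intervals and none filled.

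Genes next to glycolysis were also among those called. *Pfkfb3* (chr17:66983686-67063125) makes the activator of phosphofructokinase and had a log2FC of 0.47 (adjusted p = 0.00435), and its 3 relatives lay between 0.03 and 0.06. *Slc16a3*, a transporter that exports lactate, was at 46.9, 65.8 and 19.9 with DMSO at 24 h and at 7.15, 6.54 and 8.76 with EtOH, and its log2FC over both times was 1.57 (adjusted p = 0.0179). Glycogen genes were represented by *Gys1*, the glycogen synthase of brain and muscle, with 0.88 (adjusted p = 0.00546). *Ppp1r3c*, which brings a phosphatase to glycogen, had 0.43 (adjusted p = 0.018) and the phosphorylase *Pygl* had 0.84 (adjusted p = 0.0499). Of 22 glycogen genes tested these 3 passed, against 0.508% of all genes, and the median log2FC of the 22 was 0.02. This family too was picked for its called genes, so its share is no separate evidence. *Gys1* passed in all 12 fits that left out 1 library, *Ppp1r3c* in 8 and *Pygl* in 2, and *Gys1* was the only one of the 22 called without EtOH replicate 1 or 2 of 4 h or DMSO replicate 1 or 2 of 24 h. *Pygb*, the brain phosphorylase, had -0.08.

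Histone demethylases of the Jumonji type and their relatives use oxygen and 2-oxoglutarate as the HIF prolyl hydroxylases do. Of 26 tested, 5 were higher with DMSO (*Kdm3a*, *Jmjd6*, *Kdm7a*, *Kdm4b* and *Jmjd1c*), against 0.403% of all genes, and none was lower. The family was picked because it held called genes, so a share above that of all genes is no separate evidence. *Kdm3a* and *Jmjd6* passed in all 12 fits that left out 1 library, but *Kdm7a* in 6, *Kdm4b* in 3 and *Jmjd1c* in 1. The count was 2 without EtOH replicate 1 or 2 of 4 h, DMSO replicate 1 or 2 of 24 h or EtOH replicate 1 of 24 h, and 3 without replicate 3 of either solvent at 4 h or EtOH replicate 2 of 24 h. *Kdm3a* (chr4:103630908-103675073), which removes methyl groups from lysine 9 of histone H3, shared the smallest adjusted p with *Psd4*. At 4 h it was at 2732, 2872 and 1769 with DMSO and at 1136, 1109 and 1048 with EtOH, and at 24 h at 1603, 1879 and 1259 with DMSO and at 1211, 1150 and 1077 with EtOH. All 6 DMSO libraries lay above all 6 EtOH libraries, with a log2FC of 0.79 ± 0.07 (SE, adjusted p = 8.68e-05). The difference was 2.19-fold at 4 h and 1.36-fold at 24 h, but the change between the times did not pass (adjusted p = 0.517). *Jmjd6* had 0.40, *Kdm7a* 0.47, *Kdm4b* 0.25 and *Jmjd1c* 0.16, whereas *Kdm3b*, the closest relative of *Kdm3a*, had 0.05 and did not pass.

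*Fam162a*, which promotes cell death under hypoxia, had a log2FC of 0.58 (adjusted p = 0.0031), and *Higd1a*, which binds cytochrome oxidase and was picked after its values had been seen, had 0.45 (adjusted p = 0.018). *Narf*, which encodes a prelamin A-binding protein, was between 2490 and 3115 normalised reads in the DMSO libraries and between 1900 and 2212 in the EtOH libraries (log2FC = 0.42, adjusted p = 0.00205). The respiratory chain itself showed no call. Its 15 nuclear genes had a median log2FC of -0.08 and the 13 mitochondrially encoded genes one of 0.01, all within 95% intervals of -0.42 to 0.16. The nuclear genes leaned lower with DMSO, as 1 of the 15 had a positive log2FC, against 6917 of all 14384. At an unadjusted p under 0.05, 6 of the 15 were lower, against 6.1% of all genes, and none was higher. None of the 13 reached that level in either direction.

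A few stress genes outside these groups were higher with DMSO. Of the 17 tested on the ATF4 list, 3 passed (*Ddit4*, *Atf3* and *Vldlr*), against 0.508% of all genes, while the median of the list was 0.01. *Ddit4* (chr20:27891998-27894105), an inhibitor of mTORC1 that responds to hypoxia as well as to ATF4, was at 6052, 6742 and 3752 with DMSO at 4 h and at 2920, 3569 and 2829 with EtOH. At 24 h it was at 4033, 5180 and 3069 with DMSO and at 2815, 3252 and 2854 with EtOH. The groups were apart at 4 h only, and the log2FC was 0.61 ± 0.08 (SE, adjusted p = 0.00189). *Atf3*, a stress-induced transcription factor, was at 101, 187 and 99.0 with DMSO at 4 h against 36.7, 44.7 and 47.6 with EtOH. By 24 h it had values of 39.2, 80.3 and 59.7 with DMSO and 26.8, 37.0 and 41.2 with EtOH, which overlapped (log2FC over both times 1.11, adjusted p = 0.0031). *Maff*, a small partner of bZIP factors, followed *Atf3* with 1.79 at 4 h and 0.46 at 24 h (adjusted p = 0.0136 and 0.574). *Tnfaip3*, a brake on NF-kB, had 0.66 (adjusted p = 0.0129) and was the only call among 14 genes of inflammation and interferon response. It passed in all fits that left out 1 library except the one without DMSO replicate 2 of 24 h (adjusted p = 0.0701). At an unadjusted p under 0.05, 5 of the 14 were higher with DMSO, against 6.22% of all genes, and 0 were lower. At 4 h 13 of them had a positive log2FC (median 0.39), and at 24 h 5 did (median -0.03).

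*Hba-a1*, a haemoglobin α chain, had a log2FC of 1.25 (adjusted p = 0.0179). It was at 44.7, 63.2 and 24.9 with DMSO at 24 h and at 16.1, 22.9 and 4.38 with EtOH, and the groups overlapped at 4 h. Other erythroid markers were at or near 0, as *Hbb*, the β chain, reached at most 3.33 normalised reads and had no read in 6 of the 12 libraries. The α chain genes are near-identical copies, so its counts are uncertain.

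Other genes higher with DMSO belonged to no fixed list, and those given here were chosen after their values had been seen. *Atp7b*, a copper-transporting ATPase, had a log2FC of 0.76 (adjusted p = 0.0238) and *Ciart*, a repressor of the circadian clock, one of 0.83 (adjusted p = 0.0418). *Gls2*, a glutaminase, had 0.46 and *Ak4*, a mitochondrial adenylate kinase, 0.29 (both with an adjusted p of 0.0383). *Sh2b3*, an adaptor that restrains cytokine signalling, had 0.53 (adjusted p = 0.0118). For *Ciart*, every DMSO library lay above every EtOH library, as it did for *Fgf11*, a fibroblast growth factor homologue that stays in the cell (log2FC = 0.38, adjusted p = 0.0206). Of the 12 fits that left out 1 library, *Sh2b3* passed in 10, *Atp7b* and *Fgf11* in 6, and *Ciart*, *Gls2* and *Ak4* in 3.

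The 15 genes that were lower with DMSO had smaller differences and no common list. *Chrm3* (chr17:60005202-60467278), the M3 muscarinic receptor for acetylcholine, was at 564, 460 and 493 with DMSO at 4 h and at 844, 678 and 621 with EtOH. At 24 h it was at 667, 632 and 638 with DMSO and at 800, 748 and 744 with EtOH. The solvents did not overlap at either time, and the log2FC was -0.37 ± 0.05 (SE, adjusted p = 0.00708). The other 4 muscarinic receptors lay between -0.20 and 0.07 and did not pass. *Wnt7a*, a Wnt ligand that promotes synapse formation, had -0.26 over both times (adjusted p = 0.0181) and -0.40 at 4 h (adjusted p = 0.0156). *Cdh20*, a cadherin, was between 389 and 454 with DMSO and between 458 and 685 with EtOH over both times (log2FC = -0.33, adjusted p = 0.0282). *Pspc1*, a paraspeckle protein, had -0.26 (adjusted p = 0.0256), and in both genes every DMSO library lay below every EtOH library.

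*Fam163a* had the largest of the 15 differences, a log2FC of -0.73 (adjusted p = 0.018). Its libraries overlapped at both times, because replicate 1 was the highest in every group, but DMSO was lower in 6 of 6 pairs. *Eomes*, a transcription factor of neuronal precursors, had -0.60 (adjusted p = 0.0354) with -0.95 at 24 h and was lower in 5 of 6 pairs. It passed in 3 and *Fam163a* in 6 of the 12 fits that left out 1 library. Smaller differences were those of *Lxn*, a carboxypeptidase inhibitor (-0.35), *Nalf2* (-0.29), *Klhl13* (-0.23) and the exchange factor *Arhgef26* (-0.23).

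*Fabp7*, the brain fatty acid-binding protein of radial glia and astrocytes, was the only called cell type marker besides *Hba-a1*. It was at 18782, 21818 and 14565 with DMSO at 4 h and at 21392, 25736 and 17284 with EtOH. At 24 h the values were 16890, 21905 and 16364 with DMSO and 22992, 24864 and 17794 with EtOH, so the groups overlapped while all 6 pairs went down (log2FC = -0.24, adjusted p = 0.0285). It passed in 4 of the 12 fits that left out 1 library. The other 9 astrocyte markers did not pass, and the median of the 10 was -0.10. At an unadjusted p under 0.05, 4 of the 10 were lower with DMSO (6.1% of all genes) and 1 was higher (6.22%). Their summed level lay between 65249 and 107435 normalised reads with DMSO and between 65035 and 116448 with EtOH at 4 h, and between 69311 and 108948 with DMSO and between 73472 and 113878 with EtOH at 24 h. These ranges overlapped widely, and the lowest sums were those of replicate 3. Sums of neuronal and of oligodendrocyte markers also overlapped at both times. For 8 markers of mural cells and fibroblasts, the sums at 24 h were apart, 1097 to 1786 with DMSO and 1922 to 2380 with EtOH. At 4 h they overlapped, with 1870 to 4477 for DMSO and 1497 to 2835 for EtOH, and none of the 8 markers was called. The part of cell composition in the results was not tested.

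The size of the solvent difference depended on the replicate number. Among the genes higher with DMSO, the median difference of the pairs at 4 h was 0.69, 0.61 and 0.27 (log2) for replicates 1, 2 and 3, and at 24 h it was 0.43, 0.57 and 0.21. The glycolysis list differed by 0.60, 0.03 and 0.05 at 4 h and by 0.32, 0.58 and 0.11 at 24 h, so that at 4 h its median exceeded 0.1 in replicate 1 alone. The hypoxia list had medians of 0.85, 0.65 and 0.36 at 4 h and of 0.36, 0.68 and 0.02 at 24 h. In a principal component analysis of the 12 libraries, 81.1% of the variation along PC1 (24.9% of the total) lay between replicate numbers and 0.281% between the solvents. Among the first 4 components the solvent share was highest along PC4, at 25.2% of a component that held 10.9%.

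**Figure D4:**
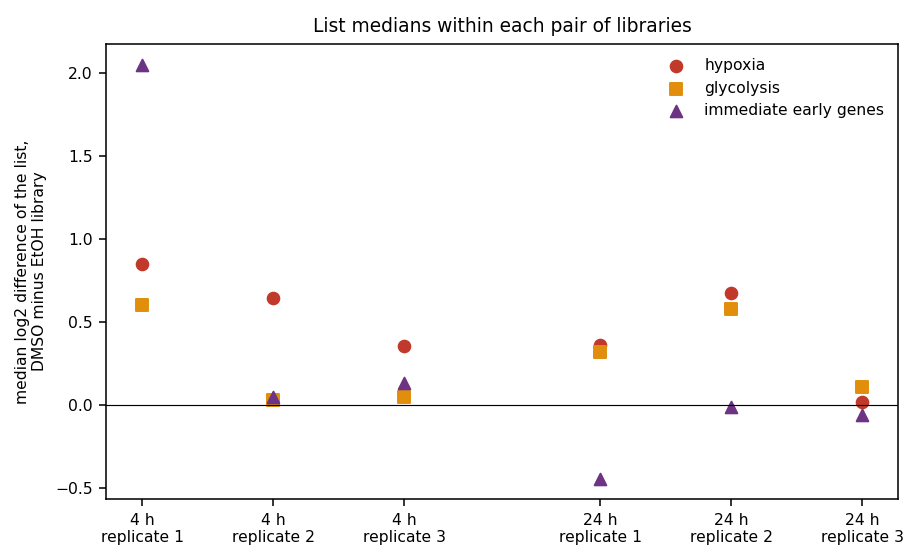
Median log2 difference between the DMSO and the EtOH library of each pair (y axis) for 3 gene lists, in the 6 pairs given by time and replicate number. The immediate early genes reach 2.05 in replicate 1 at 4 h and lie between -0.44 and 0.13 elsewhere, and the hypoxia list is above 0 in all 6 pairs.

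Immediate early genes, which neurons switch on within minutes of activity, gave no call. All 18 had a positive log2FC over both times, with a median of 0.30, of 0.81 at 4 h and of -0.17 at 24 h. The value at 4 h came from 1 pair. *Npas4*, a factor switched on by neuronal activity, was at 3169 normalised reads in DMSO replicate 1 at 4 h, against 108 and 156 in the other DMSO replicates and 63.3, 40.3 and 63.8 with EtOH. *Fos* was at 1838, 275 and 249 with DMSO and at 107, 190 and 70.1 with EtOH (log2FC at 4 h 2.15, adjusted p = 0.0965). Within the pairs, the median of the list at 4 h was 2.05 for replicate 1 but 0.05 and 0.13 for replicates 2 and 3. The 3 pairs of 24 h had medians of -0.44, -0.01 and -0.06.

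The change of the solvent difference between 4 h and 24 h was tested as an interaction, and limma called 0 genes (1205 at an unadjusted p under 0.05, smallest adjusted p = 0.22). DESeq2 with the block called 4, and edgeR 0. Of genes with a lower log2FC at 24 h than at 4 h in every replicate number, *Kdm3a* (interaction log2FC = -0.69), *Npas4* (-3.97) and *Cstf3* had the smallest p. *Cstf3* encodes a subunit of the complex that cleaves RNA before polyadenylation. *Gfra2*, the receptor for neurturin, was called lower at 4 h (log2FC = -0.55, adjusted p = 0.0141) with 0.00 at 24 h. The interaction log2FCs of *Slc43a2*, *C2cd4c* and *Slc16a6*, which were lower with DMSO at 4 h and higher at 24 h, were 0.66, 0.66 and 0.68. *Vegfa*, *Zfhx2*, *Fam163a*, *Eomes* and *Gsta1* were among the next genes after *Psd4* at 24 h and did not pass (adjusted p = 0.0646 for the first 4 and 0.0782 for *Gsta1*).

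Genes that handle the solvents themselves did not pass the test. Of 11 genes of ethanol and aldehyde metabolism the log2FCs lay between -0.39 and 0.09, and of 4 methionine sulfoxide reductases between -0.14 and 0.22. The smallest p-values were those of *Aldh1b1*, a mitochondrial aldehyde dehydrogenase (log2FC = -0.14, adjusted p = 0.29), and of *Msra*, which reduces methionine sulfoxide (-0.14, adjusted p = 0.23). *Cat*, the catalase, had 0.09 with a 95% interval of 0.00 to 0.19 (adjusted p = 0.398). The known targets of ethanol on the membrane gave no call either. The 12 GABA-A receptor subunits had a median of -0.01 (95% intervals from -0.63 to 0.30), the 22 glutamate receptors -0.01 (-0.71 to 0.39) and the 8 GIRK, BK and glycine receptor channels 0.03 (-0.26 to 0.35). These bounds are those of the least precise members.

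Lists tied to the drugs of the study had no calls. None was made among 23 genes of the Nrf2 pathway (median -0.04), 10 of metallothionein and zinc (-0.00), 18 of heat shock (-0.04), 18 chaperones of the endoplasmic reticulum (-0.07) or 24 of cholesterol synthesis (-0.02). The 17 genes that the study named for its drugs had a median of -0.05, of 0.03 at 4 h and of -0.19 at 24 h. Some of these lists leaned lower with DMSO at an unadjusted p under 0.05 (6.1% of all genes lower, 6.22% higher). In the Nrf2 list 6 of 23 were lower and 2 higher, and among the 17 drug genes 5 were lower and 1 higher. Of the 18 chaperones, 5 were lower and 0 higher. *Hmox1*, haem oxygenase, had a log2FC of 0.08 with a 95% interval of -0.11 to 0.27, and *Mt1* had 0.02 (-0.31 to 0.35). *Nqo1*, a quinone reductase driven by Nrf2, had -0.18 (-0.36 to -0.01, adjusted p = 0.386), and *Me1*, the malic enzyme, had -0.17 (adjusted p = 0.065). There was none either among 9 genes of fatty acid synthesis, 18 of DNA methylation and histone deacetylation, 17 of p53 and apoptosis, 23 of proliferation and 15 of synaptic vesicles. The proliferation list leaned lower with DMSO at 24 h, where 0 of the 23 had a positive log2FC (median -0.22). Its pair medians at 24 h were -0.19, -0.48 and -0.0006 for replicates 1, 2 and 3. At 4 h, 18 of the 23 were positive (median 0.05). Over all genes, the 95% interval of the solvent difference lay within a 1.5-fold change for 87.4% and within a 2-fold change for 97.3%.

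Other libraries of the series held the same solvents together with a drug, MMF in DMSO at 30 µM and CBD in EtOH at 6 µM, with 6 libraries each. None of these is a vehicle library, so they are separate from the 12 above apart from the shared replicate numbers, but solvent and drug cannot be told apart in them. Of the 58 genes higher with DMSO, 32 were also higher in MMF than in CBD (55.2%), and none was lower. Of all 14536 genes tested in these libraries, 4.56% differed, 2.27% being higher and 2.29% lower in MMF. The log2FC was positive for 55 of the 58, against 49.5% of all genes. Of the 15 genes lower with DMSO, 3 were lower in MMF and 12 had a negative log2FC. With DMF in place of MMF, 32 of the 58 were higher (10.8% of all genes) and 9 of the 15 lower (12% of all genes) than in CBD. The same 6 CBD libraries served for MMF and for DMF, so these comparisons are not independent of each other. For MMF, the 35 genes that passed in the same direction became 2 without the replicate block and 20, 1 and 46 without replicates 1, 2 and 3.

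Single genes kept their size to a varying degree. *Psd4* was 2.13 higher in MMF than in CBD on the log2 scale (adjusted p = 0.00147), with 70.5, 125 and 19.4 normalised reads for MMF at 24 h and 9.64, 9.04 and 3.63 for CBD, without overlap. *P4ha1* was 0.77 higher (adjusted p = 0.00718), *Kdm3a* 0.71 (adjusted p = 0.00383), *Vegfa* 0.85 (adjusted p = 0.0344) and *Ldha* 0.90 (adjusted p = 4.91e-05). *Hk2* had 0.99 and *Slc2a1* 0.20, and neither passed (adjusted p = 0.13 and 0.76). *Atf3* had -1.56 (adjusted p = 0.15). The ATF4 list had a median of -0.81 in these libraries, with 6 of 17 genes lower in MMF than in CBD and 1 higher. Over all genes, 2.29% were lower and 2.27% higher. Of the hypoxia list 7 of 10 genes and of the glycolysis list 10 of 19 were higher in MMF than in CBD, against 2.27% of all genes. Such shifts were not particular to them, as lists without a call between the vehicles also moved. Of 18 immediate early genes 9 were higher in MMF than in CBD, and of 18 chaperones of the endoplasmic reticulum 15 were lower.

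**Figure D5:**
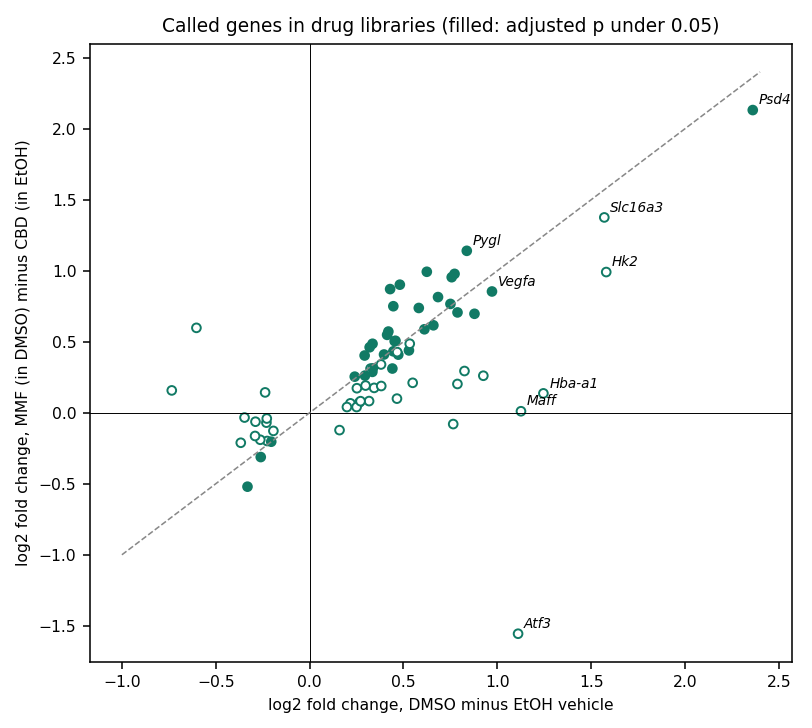
Log2 fold change between the vehicles (DMSO minus EtOH, x axis) against that between drug libraries (MMF in DMSO minus CBD in EtOH, y axis) for the 73 called genes, with genes at an adjusted p under 0.05 in the drug libraries filled and the dashed line marking equal values. Of the 58 genes to the right of 0, 55 lie above 0, and *Atf3* lies farthest below at -1.56.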

How the data were processed

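RNA-seq was carried out by the authors, whose processing notes name Cutadapt 4.4 and Trimmomatic 0.39 for trimming, HISAT2 2.2.1 for alignment (genome mRatBN7.2), HTSeq 2.0.3 for counting on genes and DESeq2 1.40.2 for the comparison of groups. The strand setting and the treatment of reads shared between genes are not given in the sources used here. The signal values deposited by the authors are read counts per gene, scaled in each table by the size factor that DESeq2 gave a library. Columns of fold changes and p-values in the tables were not used. Of 19 tables, 6 were used, which are DMSO against EtOH and CBD against MMF or DMF at both times. Whole reads were recovered for 100% of values (tolerance 0.001), the tables of both times were joined on 19128 genes, and 1665 genes listed at one time only (at most 7.53) were not tested.

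The deposited values were not rescaled, so the times keep separate scales and each contrast lies within a table. Log2(value + 1) was fitted with limma 3.58.1 in R 4.3.3 (empirical Bayes, mean trend) on 12 libraries with 4 groups and the replicate number as a block. Genes were kept by filterByExpr of edgeR 4.0.16, and the Benjamini-Hochberg adjustment covered 14384 genes. Fold changes are on the log2(value + 1) scale, which understates those of low genes. Replicate numbers come from the labels. Libraries with the same number mostly deviated together from their group means (r from 0.136 to 0.6 for same-numbered libraries, from -0.493 to 0.178 for others). These ranges overlap slightly. Deviations cancel within a group, so that positive r for same numbers brings negative r for others. Each experiment was stated to be repeated, but not that a number marks the same culture preparation, so the pairing by number is an assumption. Nothing says that replicates came from separate litters, so p-values measure the spread between these libraries. Libraries of a group differed by more than sampling noise (chi-square per degree of freedom from 5.53 to 19.3).

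The gene lists, the members and the tests were chosen with earlier results of these data known. Genes named are the 10 higher and 10 lower genes with the smallest p over both times, 3 in each direction at each time and for the interaction, and up to 4 called, or otherwise the 2 leading, members of each list, besides members of a list or family given with it. Alternatives were no block, pairs as the block, the 6 libraries of each time alone, TMM scaling, edgeR and DESeq2 1.42.0, no filter, a pseudocount of 0.1, a log2FC minimum of 0.5, and leaving out each library or replicate number. The fits of edgeR and DESeq2 without the block were added after seeing the data. In simulated data, 200 of 14384 genes were changed 2-fold, alike in every replicate and at both times, with a replicate effect built in. The test over both times recovered 95.5% of them, and 5.91% of its calls were unchanged genes. Most called differences in the real data were smaller and varied with the replicate number, and the recovery of such differences was not simulated. Promoters and plots were handled in Python 3.11.15 with matplotlib 3.10.9.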

Additional observations from a re-analysis of the deposited data

How the results depend on the processing

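The count over both times (73) was 75 with TMM scaling, 83 with edgeR, 68 without a filter and 70 with a pseudocount of 0.1, and it moved to 120 with DESeq2, 45 with the 6 pairs as the block and 27 with a log2FC minimum of 0.5. The replicate block decided most calls. Without it, limma and edgeR called 0 genes over both times, at 4 h and at 24 h, and DESeq2 called 48 over both times, 21 at 4 h and 0 at 24 h. At 4 h (28 genes), DESeq2 with the block called 68 and the fold minimum left 18, while the 6 libraries alone gave 55 with the block and 0 without it. At 24 h (1 gene), DESeq2 with the block called 40, and the 6 libraries alone gave 68 with the block and 0 without it. For the interaction (0 genes), DESeq2 with the block called 4. Leaving out single libraries gave 17 to 139 genes over both times, 3 to 49 at 4 h, 0 to 21 at 24 h and 0 to 2 for the interaction, and leaving out a replicate number gave 7 to 40, 7 to 18, 0 to 7 and 0 to 2. All 12 fits without 1 library called 14 genes, *Atf3*, *Chrm3*, *Ddit4*, *Fam162a*, *Gys1*, *Hk2*, *Jmjd6*, *Kdm3a*, *Narf*, *P4ha1*, *Pfkfb3*, *Psd4*, *Slc2a1* and *Vegfa*.

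The 35 genes shared with MMF against CBD became 2 without the replicate block and 1 to 46 without a replicate number. The solvent share of the first 4 principal components, 7.4%, became 11.2% with the 500 most variable genes, 21.1% with replicate means removed and 15.3 to 17.2% without a replicate number. Of 2225 values of 89 named genes under the alternatives, 1971 kept their sign and their side of the threshold, 236 lost a call and 7 gained one. The 11 that changed sign were all of uncalled genes with libraries left out, whose log2FC ranged from -0.61 to 0.021 for *Ttr*, -0.013 to 0.20 for *Kdr*, -0.58 to 0.097 for *Col1a1*, -0.16 to 0.0059 for *Eif2s3y*, -0.088 to 0.037 for *Slc43a2*, -1.20 to 0.052 for *C1qa*, -0.077 to 0.56 for *Lhx1*, -0.038 to 0.25 for *Uty* and -0.084 to 0.010 for *Acaca*. Depth limits low genes most, and with 3 libraries a group the median half-width of the 95% interval was 0.13 (log2) over both times and 0.19 at a single time. The causes of these shifts were not tested.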
